A study of Mus musculus with 12 samples.

Results

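FoxM1 loss was examined in satellite cells (SCs), the stem cells of skeletal muscle, at 48 h after muscle injury. The comparison set FoxM1-cKO SCs against FoxM1fl/fl SCs and used 6 of the 12 libraries of the study, 3 in each group, chosen by the labels that give genotype and activated state. FoxM1-cKO mice were FoxM1fl/fl,Pax7Cre/+ and FoxM1fl/fl mice carried the same floxed allele, with exons 4 to 7 between loxP sites, without Cre. All mice were on a C57BL/6J background and 2 months of age, and BaCl2 had been injected along the tibialis anterior and gastrocnemius muscles. For each library about 800 cells were sorted by a gate that kept CD34+ and α7-integrin+ cells and removed CD45+, CD11b+, CD31+ and Sca1+ cells, and libraries were prepared from polyA RNA with a low-input kit. Cre was expressed from Pax7, so recombination was limited to cells with a history of Pax7 expression. The labels do not say which mouse gave which library, so p-values measure the spread between libraries, part of which may be technical.

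SCs lie quiescent beneath the basal lamina of the muscle fibre. After injury they enter the cell cycle, express myogenic regulators, and differentiate into new fibres or return to quiescence. FoxM1 is a forkhead transcription factor of proliferating cells that is best known for driving the genes of the G2 and M phases, among them Ccnb1 and Aurka. It reaches many of these promoters through the MuvB complex, which reads a short element called the cell cycle genes homology region (CHR), often placed near CCAAT boxes bound by NF-Y. The study also asked whether FoxM1 acts on Wnt signalling, in which the Apc, Axin and Gsk3b complex marks β-catenin for destruction.

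Values are the deposited FPKM, which scale reads to gene length and library size. The gene Gm23935 held 48.4%, 25.3% and 20.7% of the summed FPKM in FoxM1-cKO injured 1, 2 and 3. Its share was 44.98%, 48.9% and 35.2% in FoxM1fl/fl injured 1, 2 and 3, so the groups overlapped. Depth estimated from the size of the FPKM steps ranged over 1692931 to 2854399 reads in FoxM1-cKO libraries, against 907532 to 1284010 reads in FoxM1fl/fl libraries. Genes above 0 numbered 6417 to 7577 in FoxM1-cKO SCs and 4462 to 6579 in FoxM1fl/fl SCs. Of the 4956 genes tested, 141 were listed at 0 in every FoxM1-cKO library and 485 in every FoxM1fl/fl library. A value of 0 is therefore given as a listed value and not as absence, and no fold change is given against a group at 0.

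FoxM1fl/fl injured 1 followed a weighted sum of FoxM1fl/fl injured 2 and 3. It held 100% of the 436 genes found in library 2 at 20 FPKM or more and at 0 in library 3, at a median 0.676 of their value, and 99.4% of the 319 genes found likewise only in library 3, at a median 0.322. For 82.6% of tested genes whose values in libraries 2 and 3 differed, its value lay between them. The corresponding share for FoxM1-cKO libraries was 38.0% to 39.8%. Calls below are accordingly set beside their adjusted p, or the number kept, without FoxM1fl/fl injured 1.

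**Figure D1:**
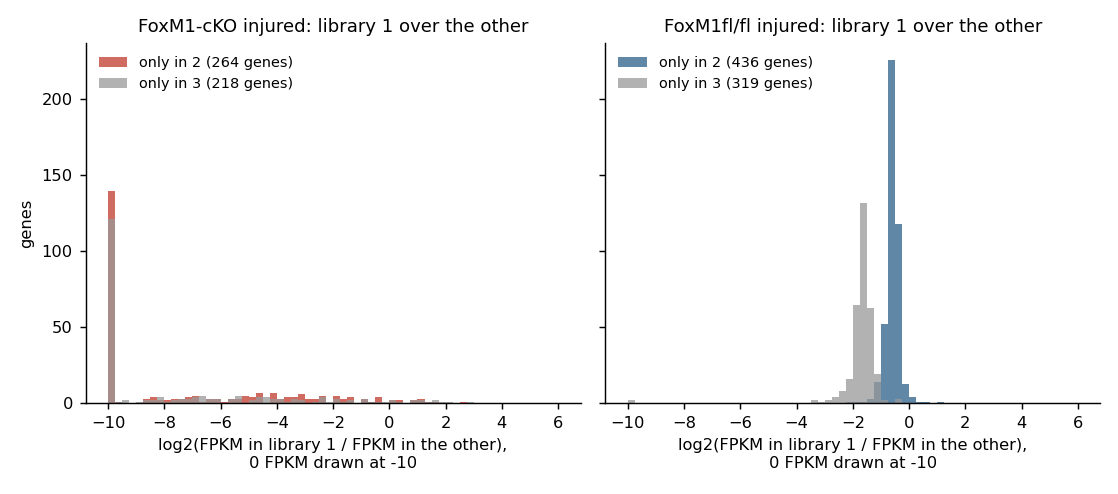
Ratio of each gene's FPKM in library 1 to that in library 2 or 3 of its group, on a log2 axis, for genes found in only that library of the pair (at least 20 FPKM against 0), with the number of genes on the y axis. FoxM1fl/fl injured 1 shows narrow peaks at ratios of 0.676 and 0.322, whereas FoxM1-cKO injured 1 lists many of these genes at 0 and spreads the rest widely.

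The sorted cells were checked against markers. Summed over 28 satellite cell markers, FPKM reached 999, 436 and 153 in FoxM1-cKO libraries, against 1621, 2925 and 80.9 in FoxM1fl/fl libraries, and the groups overlapped. The highest sums came with Fgfr4, an FGF receptor of SCs, which was at 645, 0.355 and 7.003 FPKM in FoxM1-cKO SCs and 1213, 2345 and 0 FPKM in FoxM1fl/fl SCs. Itga7, Cd34, Cdh15 and Vcam1 were chosen after their values were seen, and Itgb1, Sdc4 and Cav1 were taken as abundant markers of the list. Itga7, the integrin used in the sort, had 0.174, 0 and 3.02 FPKM in FoxM1-cKO SCs, while the FoxM1fl/fl libraries were at 0. Cd34, also a sort marker, stood at 1.26, 0.579 and 2.06 FPKM in FoxM1-cKO SCs and 2.55, 2.29 and 0 FPKM in FoxM1fl/fl SCs. Cdh15, M-cadherin of SCs, was at 17.3, 1.09 and 0 FPKM in FoxM1-cKO SCs and at 0 in each FoxM1fl/fl library, and Myod1, the regulator of activated SCs, was under 1 FPKM in each of the 6. Other SC markers were higher, with Vcam1 at 31.5, 62.1 and 27.0 FPKM in FoxM1-cKO SCs and 8.21, 12.002 and 0 FPKM in FoxM1fl/fl SCs. Itgb1, the integrin β1 chain, was at 148, 197 and 60.8 FPKM in FoxM1-cKO SCs and 78.3, 114 and 0 FPKM in FoxM1fl/fl SCs. Sdc4, syndecan 4, was at 105, 26.9 and 2.76 FPKM in FoxM1-cKO SCs and 172, 269.9 and 10.8 FPKM in FoxM1fl/fl SCs. Cav1, caveolin 1, overlapped between the groups, at 14.3, 106.9 and 9.54 FPKM in FoxM1-cKO SCs and 88.9, 118.5 and 7.62 FPKM in FoxM1fl/fl SCs. Of the 28 markers, 20, 19 and 19 were above 0 in FoxM1-cKO libraries, against 20, 14 and 12 in FoxM1fl/fl libraries.

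RNA of markers of other cells was also present. Fibro-adipogenic progenitor markers summed to 4173, 4190.4 and 3694 FPKM in FoxM1-cKO SCs and 1233, 1244 and 1153 FPKM in FoxM1fl/fl SCs, so the groups did not overlap. Macrophage and monocyte markers, of cells that the CD45 and CD11b gate should remove, summed to 1114, 45.3 and 1418 FPKM in FoxM1-cKO SCs and 1458, 726 and 2981 FPKM in FoxM1fl/fl SCs. Lgals3 gave most of the sums of FoxM1-cKO injured 2 and 3. It was at 124, 32.5 and 1252 FPKM in FoxM1-cKO SCs and 183, 31.8 and 481 FPKM in FoxM1fl/fl SCs. The sums thus rest on few genes, and single markers are given below. Endothelial markers stayed at 1.67 to 18.8 FPKM except in FoxM1-cKO injured 1, where Ly6c1 brought them to 745 FPKM, and Pecam1 was at 0 in each library. In pools of cells such as these, fewer cells of a type and less RNA per cell cannot be told apart.

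**Figure D2:**
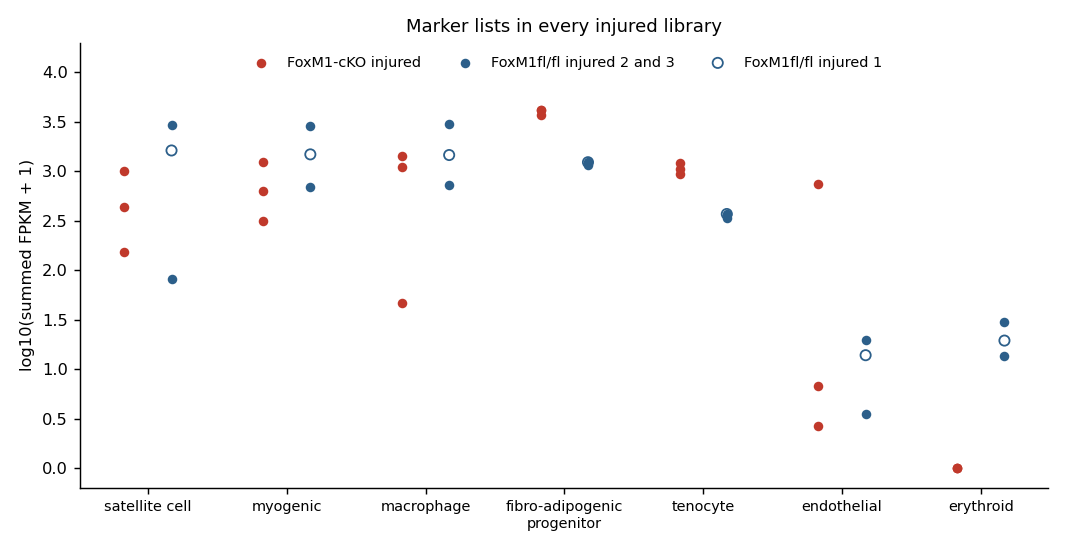
Summed FPKM of the markers of 7 cell types in each injured library, on a log10 scale after adding 1, with FoxM1-cKO left of FoxM1fl/fl and FoxM1fl/fl injured 1 drawn open. Fibro-adipogenic progenitor and tenocyte markers lie higher in each FoxM1-cKO library, satellite cell, myogenic and macrophage markers overlap, and erythroid markers are at 0 in FoxM1-cKO SCs.

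At an adjusted p under 0.05 from limma, fitted to log2(FPKM + 1) of all 12 libraries, 387 of 4956 genes differed (7.81%). Of these, 255 were higher in FoxM1-cKO SCs (5.15%) and 132 were lower (2.66%). Every FoxM1-cKO library lay above every FoxM1fl/fl library for 853 genes (17.2%) and below for 291 (5.87%). Of the called genes 361 were protein-coding and 18 were pseudogenes, 31 of the lower ones had 0 FPKM throughout the FoxM1-cKO libraries, and 91 of the higher ones had 0 FPKM throughout the FoxM1fl/fl libraries. The deeper libraries were those of FoxM1-cKO, and the part of depth in the surplus of higher genes was not tested. The part of the unequal share of Gm23935 in this surplus was not tested either. After quantile normalization 66 genes were higher and 71 lower. The median difference of all tested genes was 0.32 on the log2(FPKM + 1) scale, and every list below is read against it. For list medians under other settings it was 0.12 after median-ratio scaling, 0.07 after quantile normalization and 0.45 without FoxM1fl/fl injured 1.

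The calls leaned on FoxM1fl/fl injured 1 and on the spread shared with the uninjured groups. Without that library limma called 48 higher and 55 lower genes, all among the 387. Without it and the 2 uninjured libraries that likewise follow a sum of others (FoxM1fl/fl uninjured 1 and FoxM1-cKO uninjured 2), limma called 0, with 461 genes at an unadjusted p under 0.05 and 1145 in the full fit. The 6 injured libraries alone gave 2 calls, with 749 genes at an unadjusted p under 0.05. Log2 differences below are on the log2(FPKM + 1) scale, which understates the change of low genes, and adjusted p are from limma with the value without FoxM1fl/fl injured 1 after it.

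**Figure D3:**
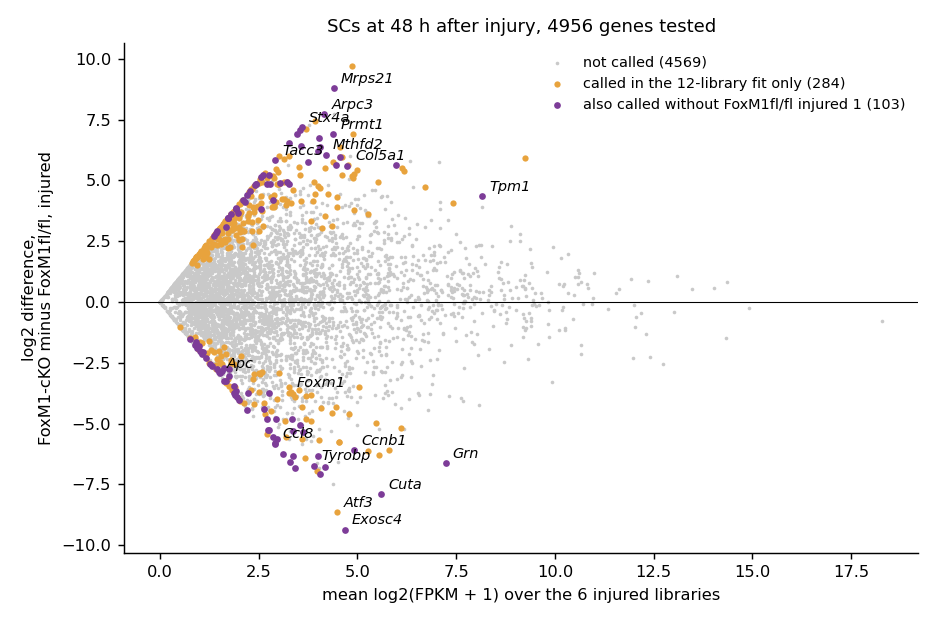
Log2 difference between FoxM1-cKO and FoxM1fl/fl SCs against mean log2(FPKM + 1) for the 4956 genes tested in injured mice. Purple points are the 103 genes called with and without FoxM1fl/fl injured 1, orange points the 284 called in the full fit only, and most called genes lie along the edges, where a group is at or near 0.

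Foxm1 itself was measured at 3.48, 1.28 and 0.832 FPKM in FoxM1-cKO SCs, against 32.8, 29.4 and 42.0 FPKM in FoxM1fl/fl SCs. The gene (ENSMUSG00000001517, chr6:128362967-128376146 in mm10) includes exons outside the floxed ones, so the gene-level value does not separate deleted from remaining exons. Each FoxM1-cKO library lay below each FoxM1fl/fl library (log2 difference -3.73, SE 0.86, adjusted p = 0.018, and 0.0774 without FoxM1fl/fl injured 1). Ccnb1, which encodes cyclin B1 (chr13:100778650-100786570), stood at 10.3, 1.42 and 0.779 FPKM in FoxM1-cKO SCs and 279.9, 425 and 130.3 FPKM in FoxM1fl/fl SCs (log2 difference -6.10, SE 1.03, adjusted p = 0.00473, and 0.0311). Its kinase partner Cdk1 was at 2.00, 8.10 and 76.9 FPKM in FoxM1-cKO SCs and 254, 373 and 0 FPKM in FoxM1fl/fl SCs, and the groups overlapped (adjusted p = 0.607, and 0.935).

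Other mitotic genes lay on the opposite side. Tacc3, a spindle protein that works with Aurora A (chr5:33658128-33678995), was at 30.2, 96.2 and 58.7 FPKM in FoxM1-cKO SCs and listed at 0 in FoxM1fl/fl SCs (adjusted p = 0.00222, and 0.0133). Aurka, Aurora A itself (chr2:172356190-172370535), was at 17.7, 94.6 and 1.53 FPKM in FoxM1-cKO SCs and at 0 in FoxM1fl/fl SCs (adjusted p = 0.0255, and 0.112). Cdc20, an activator of the anaphase-promoting complex, overlapped between the groups, at 35.0, 27.3 and 9.20 FPKM in FoxM1-cKO SCs and 16.5, 16.1 and 9.22 FPKM in FoxM1fl/fl SCs (adjusted p = 0.735, and 0.809), and its exons overlap those of Elovl1 on the other strand. Ccnb2, cyclin B2, did not pass the filter, with 0.686, 0.772 and 7.29 FPKM in FoxM1-cKO SCs and 0 in each FoxM1fl/fl library.

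The promoters of Ccnb1, Aurka and Tacc3 are shown because these are the G2 and M phase genes that passed the test and they moved in opposite directions. The windows run from 250 bases before to 50 after the start site in RefSeq (GRCm38.p6), with matches to CCAAT, to the CHR letters TTTGAA and to the forkhead letters CAAACAA (also with T at the first base, the fifth base or both) in capitals. Letters were searched on both strands.
Ccnb1 (lower), chr13:100786437-100786736, minus strand: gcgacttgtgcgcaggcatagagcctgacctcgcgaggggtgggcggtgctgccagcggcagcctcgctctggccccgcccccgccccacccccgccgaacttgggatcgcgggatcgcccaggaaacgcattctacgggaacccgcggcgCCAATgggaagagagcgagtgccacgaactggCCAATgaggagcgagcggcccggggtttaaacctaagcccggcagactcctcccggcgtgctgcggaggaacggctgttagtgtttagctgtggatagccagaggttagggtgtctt
Aurka (higher), chr2:172370521-172370820, minus strand: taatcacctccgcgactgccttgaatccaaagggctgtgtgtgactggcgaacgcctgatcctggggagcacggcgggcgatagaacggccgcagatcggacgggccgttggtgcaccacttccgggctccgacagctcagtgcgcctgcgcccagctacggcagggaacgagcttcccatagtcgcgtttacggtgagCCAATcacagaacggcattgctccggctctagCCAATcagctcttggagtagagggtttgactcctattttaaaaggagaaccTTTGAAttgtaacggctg
Tacc3 (higher), chr5:33657878-33658177, plus strand: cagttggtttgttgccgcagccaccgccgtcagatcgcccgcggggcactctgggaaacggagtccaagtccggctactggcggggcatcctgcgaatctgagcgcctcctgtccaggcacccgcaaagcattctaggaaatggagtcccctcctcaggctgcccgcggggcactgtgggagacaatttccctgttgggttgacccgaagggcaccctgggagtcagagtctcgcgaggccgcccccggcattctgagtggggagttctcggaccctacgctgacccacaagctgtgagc
Ccnb1 held 2 CCAAT matches, beginning 99 and 67 bases before the start site. Aurka held 2 as well, 51 and 19 bases before it, and a TTTGAA match from base 33 to base 38 after it. Tacc3 held no match to the letters searched, and no window of the 3 held the forkhead letters. For the CHR only the exact letters TTTGAA were searched, so a window without a match may still hold such an element. Sites outside the windows were not searched.

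Over G2 and M phase genes with a window in the table, 20 of 23 held CCAAT (87.0%) and 17 held TTTGAA (73.9%), whereas 1346 (37.8%) and 406 (11.4%) of 3561 windows of tested genes did. Windows of genes called higher held TTTGAA in 17 of 192 cases (8.85%) and those called lower in 14 of 107 (13.1%). Forkhead letters occurred in 10.4% of the higher, 10.3% of the lower and 10.2% of all tested windows, so they were about as frequent in each set. Over all 27025 windows of the table the shares were 37.9% for CCAAT, 18.1% for TTTGAA and 17.2% for the forkhead letters.

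Of 29 G2 and M phase genes tested, Aurka and Tacc3 rose, Ccnb1 fell and 26 did not pass, so that 10.3% were called, against 7.81% of all genes. The median difference of the list was 0.02, against 0.32 over all genes. It was -0.20 after median-ratio scaling and 0.27 after quantile normalization, against 0.12 and 0.07 over all genes. The list thus lay below all genes in the first 2 of these settings and above them after quantile normalization. Tacc3 and Ccnb1 kept their calls without FoxM1fl/fl injured 1. Among 35 genes for S phase entry and replication, 2 rose, 1 fell and 32 did not pass (8.57% called), with a median of -0.35. The genes that rose were Rfc4, of the clamp loader, at 37.3, 8.77 and 9.48 FPKM in FoxM1-cKO SCs and 0.610, 0.609 and 0 FPKM in FoxM1fl/fl SCs (adjusted p = 0.00945, and 0.058), and Tipin, which protects replication forks (adjusted p = 0.0081, and 0.0608). Pola2, the regulatory subunit of DNA polymerase alpha, was at 0 in FoxM1-cKO SCs and 4.18, 1.29 and 2.27 FPKM in FoxM1fl/fl SCs (adjusted p = 0.00931, and 0.0444). Cdkn1c, a CDK inhibitor, was higher at 109, 2.49 and 4.85 FPKM, against 0 in each FoxM1fl/fl library (adjusted p = 0.0374, and 0.147), with by far its highest value in FoxM1-cKO injured 1. Fzr1, the Cdh1 activator, Ccnd3, cyclin D3, and Ccng2, cyclin G2, were at 0 in each FoxM1fl/fl library and were not tested, since fewer than 3 libraries reached 1 FPKM. In FoxM1-cKO SCs Fzr1 was at 0, 79.2 and 0 FPKM, Ccnd3 at 96.5, 4.75 and 0 FPKM and Ccng2 at 5.02, 0.521 and 15.4 FPKM. Among 14 genes of the anaphase-promoting complex, Anapc1, its largest subunit, was the 1 called (7.14%, against 7.81% of all genes). It was higher, at 2.62, 12.2 and 10.1 FPKM in FoxM1-cKO SCs and 0.262, 0 and 0.986 FPKM in FoxM1fl/fl SCs (adjusted p = 0.0203, and 0.115).

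**Figure D4:**
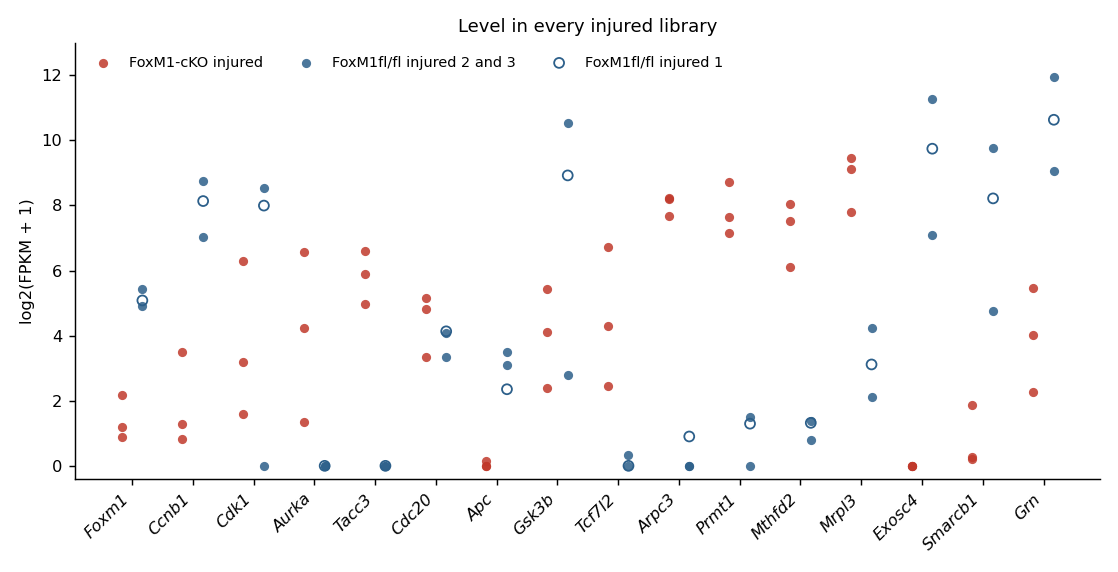
Level of 16 genes as log2(FPKM + 1) in each injured library, FoxM1-cKO left of FoxM1fl/fl and FoxM1fl/fl injured 1 drawn open. Foxm1, Ccnb1, Apc, Exosc4, Smarcb1 and Grn lie lower in each FoxM1-cKO library, Aurka, Tacc3, Tcf7l2, Arpc3, Prmt1, Mthfd2 and Mrpl3 lie higher, and Cdk1, Cdc20 and Gsk3b overlap.

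In the Wnt pathway, Apc fell and its partners did not pass. Apc, the scaffold of the β-catenin destruction complex (chr18:34220924-34322552), was at 0, 0 and 0.118 FPKM in FoxM1-cKO SCs and at 4.11, 7.57 and 10.2 FPKM in FoxM1fl/fl SCs (log2 difference -2.92, SE 0.48, adjusted p = 0.00465, and 0.0115). This call held with each of the 12 libraries left out in turn (adjusted p = 0.000645 to 0.0168). It was lost with no filter (adjusted p = 0.0682), after quantile normalization (0.0686), in the 6 injured libraries alone (0.183) and without the 3 libraries that follow a sum of others (0.250). Gsk3b, the kinase of the complex, was at 42.4, 4.197 and 16.3 FPKM in FoxM1-cKO SCs and 484, 5.91 and 1471 FPKM in FoxM1fl/fl SCs, so the groups overlapped (adjusted p = 0.371, and 0.678). Axin1, the other scaffold, had 0 FPKM throughout the FoxM1-cKO libraries and 48.1, 0 and 128 FPKM in FoxM1fl/fl SCs, and did not pass the filter. Skp1a, of the SCF ubiquitin ligase, was at 119, 39.7 and 299 FPKM in FoxM1-cKO SCs and 314, 480.0 and 18.2 FPKM in FoxM1fl/fl SCs (adjusted p = 0.962, and 0.987). Ctnnb1, which encodes β-catenin, was at 3.00, 20.7 and 0.535 FPKM in FoxM1-cKO SCs and 11.6, 19.99 and 2.43 FPKM in FoxM1fl/fl SCs (adjusted p = 0.669, and 0.85).

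Tcf7l2, a transcription factor that pairs with β-catenin, rose to 4.50, 18.6 and 104 FPKM in FoxM1-cKO SCs, against 0, 0 and 0.267 FPKM in FoxM1fl/fl SCs (adjusted p = 0.0117, and 0.0729). Apc and Tcf7l2 were the called genes among 28 of the pathway (7.14%, close to the 7.81% of all genes), whose median was -0.38. Of 26 TGF-β family genes none fell and 2 rose (7.69% called, close to the 7.81% of all genes). Without overlap 9 lay higher, against 17.2% of all genes. Fst, follistatin, which binds activin, was at 18.4, 13.8 and 2.23 FPKM in FoxM1-cKO SCs and at 0 in FoxM1fl/fl SCs (adjusted p = 0.00817, and 0.0628). Inhba, the activin A subunit, was at 133, 60.3 and 27.7 FPKM in FoxM1-cKO SCs and 2.69, 0.731 and 5.52 FPKM in FoxM1fl/fl SCs (log2 difference 4.15, SE 0.92, adjusted p = 0.0144, and 0.0688). Tgfb3 was higher in each FoxM1-cKO library, at 20.4, 12.1 and 16.2 FPKM against 3.12, 5.24 and 2.94 FPKM in FoxM1fl/fl SCs, without passing the test (adjusted p = 0.164, and 0.394). Tgfb2 overlapped, at 313, 197 and 132 FPKM in FoxM1-cKO SCs and 104, 169 and 13.6 FPKM in FoxM1fl/fl SCs (adjusted p = 0.398, and 0.516).

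Mitochondrial ribosomal proteins held the most called members of any list. Of 49 tested, 9 rose (18.4%, against 5.15% of all genes), none fell and 40 did not pass, and 6 kept the call without FoxM1fl/fl injured 1. The median of the list was 0.11, against 0.32 over all genes. It was -0.07 after median-ratio scaling and 0.25 after quantile normalization, against 0.12 and 0.07 over all genes. Over the 42 members not at 0 throughout either group the median was -0.41, against 0.17 over all such genes. The called members Mrps21, Mrpl10, Mrps28 and Mrps15 were at 0 throughout the FoxM1fl/fl libraries, so the calls do not show a rise of the whole list. It had 4 members lying lower without overlap beside 13 lying higher, against 5.87% and 17.2% of all genes. Mrps21, of the small subunit, was at 628, 3712 and 36.8 FPKM in FoxM1-cKO SCs and at 0 in FoxM1fl/fl SCs (adjusted p = 0.00325, and 0.0196). Mrpl3, of the large subunit, was at 553, 701 and 221 FPKM in FoxM1-cKO SCs and 7.66, 3.33 and 17.8 FPKM in FoxM1fl/fl SCs (log2 difference 5.64, SE 0.97, adjusted p = 0.00489, and 0.0325). Mrpl10 and Mrps17 showed the same separation (adjusted p = 0.0048 and 0.0041, and 0.0325 and 0.0288). Summed over the whole list, FPKM was 3761, 5785 and 1818 in FoxM1-cKO SCs and 1999, 2005 and 1748 in FoxM1fl/fl SCs, with each FoxM1-cKO value but that of library 3 above those of FoxM1fl/fl.

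Respiratory complexes gave 7 higher and 1 lower gene of 72 (11.1% called, against 7.81% of all genes). Atp5c1, of the ATP synthase, was at 41.0, 164 and 373 FPKM in FoxM1-cKO SCs and 1.80, 1.35 and 0 FPKM in FoxM1fl/fl SCs (log2 difference 6.20, SE 1.15, adjusted p = 0.00631, and 0.0332). Cox5a, a cytochrome c oxidase subunit, was at 1055, 148 and 971 FPKM in FoxM1-cKO SCs and 16.7, 24.4 and 17.6 FPKM in FoxM1fl/fl SCs (adjusted p = 0.0352, and 0.139). Ndufa9, of complex I, went the other way, at 0, 62.1 and 1.34 FPKM in FoxM1-cKO SCs and 558, 654 and 192 FPKM in FoxM1fl/fl SCs (adjusted p = 0.0129, and 0.0676). The higher genes also included Sdhb, Ndufa5, Uqcrc1, Uqcrc2 and Cox6b1 (adjusted p = 0.00945 to 0.0487), and of the 8 calls that of Atp5c1 held without FoxM1fl/fl injured 1. In mitochondrial import Timm23 was higher and Timm17a lower among 23 genes (8.70%, near the share of all genes), and both calls were lost without FoxM1fl/fl injured 1 (0.109 and 0.126).

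Of 85 cytosolic ribosomal proteins, 1 rose and none fell (1.18% called, against 7.81% of all genes). Without overlap 22 lay higher and 3 lower, against 17.2% and 5.87% of all genes. Rpl36, of the large subunit, was at 5885, 2197 and 8133 FPKM in FoxM1-cKO SCs and 81.1, 73.3 and 76.4 FPKM in FoxM1fl/fl SCs (log2 difference 5.92, SE 1.38, adjusted p = 0.0186, and 0.0832). Its processed copies Rpl36-ps12 and Rpl36-ps2 were also called (adjusted p = 0.00279 and 0.00631, and 0.0182 and 0.0427), with 82.6, 135 and 415 FPKM for the first of them in FoxM1-cKO SCs and 0, 0 and 2.83 FPKM in FoxM1fl/fl SCs. Reads of near-identical copies can be split between them, so these are not separate findings. Gpx4-ps2, a copy of Gpx4, is uncertain for the same reason, and both were higher (adjusted p = 0.0081 and 0.0266, and 0.0387 and 0.0806). Translation factors gave 4 higher and no lower gene of 45 (8.89% called), and none of the 4 calls held without FoxM1fl/fl injured 1. Eif3m, of the eIF3 complex, was at 86.0, 745 and 135 FPKM in FoxM1-cKO SCs and 3.58, 2.38 and 6.17 FPKM in FoxM1fl/fl SCs (adjusted p = 0.0392, and 0.141), and Eif3d, Eif4e2 and Eif6 had adjusted p of 0.0352, 0.0101 and 0.00895, and 0.125, 0.0509 and 0.0614 without it.

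Among the 15 highest differences that held without FoxM1fl/fl injured 1, Arpc3 stood first by p, at 291, 297 and 203 FPKM in FoxM1-cKO SCs and 0.868, 0 and 0 FPKM in FoxM1fl/fl SCs (log2 difference 7.73, SE 0.82, adjusted p = 0.00168, and 0.0101). Arpc3 is a subunit of Arp2/3, which nucleates branched actin (chr5:122391878-122414184). Of its partners in the complex, Actr2 and Arpc4 fell. Actr2, the Arp2 subunit, was at 4.15, 1.30 and 0.668 FPKM in FoxM1-cKO SCs and 90.0, 119 and 13.4 FPKM in FoxM1fl/fl SCs (adjusted p = 0.0161, and 0.0781). Arpc4 was at 11.1, 3.64 and 2.14 FPKM in FoxM1-cKO SCs and 135, 171 and 111 FPKM in FoxM1fl/fl SCs (adjusted p = 0.0111, and 0.0573). Over 35 genes of actin turnover, of which 20% were called against 7.81% of all genes, 4 rose (Arpc3, Brk1, Cfl1, Capza1) and 3 fell (Actr2, Arpc4, Twf2). Of the 7 calls that of Arpc3 held without FoxM1fl/fl injured 1. Subunits of a single complex thus lay on opposite sides.

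The other genes of that group of 15 belonged to several machineries. Stx4a, a membrane fusion syntaxin, was at 139, 52.7 and 411 FPKM in FoxM1-cKO SCs and at 0 in FoxM1fl/fl SCs (adjusted p = 0.00188, and 0.0115). Prmt1, the main asymmetric arginine methyltransferase, was at 424, 140.3 and 198 FPKM in FoxM1-cKO SCs and 1.45, 1.81 and 0 FPKM in FoxM1fl/fl SCs (adjusted p = 0.00205, and 0.0115). Fkbp11, a peptidyl-prolyl isomerase of the secretory pathway, was at 239.6, 107 and 49.1 FPKM in FoxM1-cKO SCs and 0, 1.07 and 0 FPKM in FoxM1fl/fl SCs (adjusted p = 0.00246, and 0.0151). In each case the lowest FoxM1-cKO value exceeded the highest FoxM1fl/fl value by a wide margin. These genes were picked for no overlap and for the largest differences, so the margin is not a separate finding. Slc20a1, a phosphate transporter, was at 199, 83.9 and 209 FPKM in FoxM1-cKO SCs and 3.76, 3.76 and 0.332 FPKM in FoxM1fl/fl SCs (adjusted p = 0.00427, and 0.0196).

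Serine and one-carbon metabolism had 2 higher and no lower gene of 20 (10% called, against 7.81% of all genes), and its median was 1.21. Mthfd2, the mitochondrial folate enzyme, was at 67.9, 260.3 and 184 FPKM in FoxM1-cKO SCs and 1.497, 0.747 and 1.59 FPKM in FoxM1fl/fl SCs (log2 difference 6.06, SE 0.87, adjusted p = 0.00291, and 0.016). Psat1, of serine synthesis, was at 21.8, 26.4 and 47.4 FPKM in FoxM1-cKO SCs and 1.19, 0.595 and 0.421 FPKM in FoxM1fl/fl SCs (log2 difference 4.19, SE 0.74, adjusted p = 0.00558, and 0.0325). Both calls held without FoxM1fl/fl injured 1. Nucleotide synthesis had no called gene among 20, although its median was 1.35 and 7 genes lay higher without overlap, against 17.2% of all genes.

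Proteasome subunits Psma1, of the core particle, and Psmc2, an ATPase of the cap, rose, and Psmd13, of the lid, fell (adjusted p = 0.0175, and 0.0709), out of 37. The share called was 8.11%, near the 7.81% of all genes. Psma1 was at 373, 131 and 127 FPKM in FoxM1-cKO SCs and 4.55, 3.89 and 0 FPKM in FoxM1fl/fl SCs (adjusted p = 0.00441, and 0.0182). Psmc2 was at 51.1, 13.5 and 16.7 FPKM in FoxM1-cKO SCs and at 0 in FoxM1fl/fl SCs (adjusted p = 0.00325, and 0.0311). Of 30 genes of the nuclear pore and transport, 5 rose (Kpnb1, Ipo5, Nup93, Nup54, Nup62) and 1 fell (20% called), with a median of 0.95. Nup54, of the central channel, was at 14.9, 14.6 and 94.2 FPKM in FoxM1-cKO SCs and at 0 in FoxM1fl/fl SCs (adjusted p = 0.00465, and 0.0325). Nup98, also a pore protein, was at 1.05, 2.38 and 0.0724 FPKM in FoxM1-cKO SCs and 94.9, 119.6 and 41.0 FPKM in FoxM1fl/fl SCs (log2 difference -5.33, SE 0.93, adjusted p = 0.00502, and 0.0325). Of the 6 calls those of Nup54 and Nup98 held without FoxM1fl/fl injured 1.

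Extracellular matrix genes lay higher in FoxM1-cKO SCs. Of 48 tested, 7 rose (14.6%, against 5.15% of all genes) and none fell. Without overlap 22 lay higher and 0 lower, against 17.2% and 5.87% of all genes. The median was 1.73, against 0.32 over all genes. It was 1.34 after median-ratio scaling and 1.06 after quantile normalization, against 0.12 and 0.07 over all genes. Col5a1, a fibrillar collagen, was at 438, 112 and 137 FPKM in FoxM1-cKO SCs and 2.88, 3.61 and 2.23 FPKM in FoxM1fl/fl SCs (log2 difference 5.62, SE 1.20, adjusted p = 0.0125, and 0.0657). Col6a1, of the microfibrillar collagen VI around SCs, was at 28.5, 244 and 1327 FPKM in FoxM1-cKO SCs and 1.14, 2.09 and 1.61 FPKM in FoxM1fl/fl SCs (log2 difference 6.36, SE 1.43, adjusted p = 0.0159, and 0.0813). Col15a1 and Col4a1, of basement membranes, and Col12a1, Col6a3 and Lum completed the group (adjusted p = 0.0144 to 0.0398). None of the 7 calls held without FoxM1fl/fl injured 1 (0.0657 to 0.161), while the median of the list was then 1.90, against 0.45 over all genes. Itgb5, a vitronectin receptor subunit, was the 1 called gene of 18 integrins and adhesion genes (5.56%, against 7.81% of all genes). It was at 438, 272 and 28.3 FPKM in FoxM1-cKO SCs and 0, 0 and 0.357 FPKM in FoxM1fl/fl SCs (adjusted p = 0.0159, and 0.0781).

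Markers of fibro-adipogenic progenitors, the mesenchymal cells of muscle, were read beside the matrix genes. Of 20 such markers tested 3 rose (15%, against 5.15% of all genes), none fell and 8 lay higher without overlap, against 17.2% of all genes. The median was 1.42, and none of the 3 calls held without FoxM1fl/fl injured 1. Both lists share members, among them Col1a1, Col1a2, Col3a1 and Lum, so they are not separate findings. Pdgfra, their defining receptor, was at 45.4, 196 and 13.6 FPKM in FoxM1-cKO SCs and 0.114, 0.342 and 0 FPKM in FoxM1fl/fl SCs (log2 difference 5.48, SE 1.06, adjusted p = 0.00772, and 0.0507). Dpt, a matrix protein of fibroblasts, was at 30.9, 17.1 and 23.9 FPKM in FoxM1-cKO SCs and 0, 0 and 1.92 FPKM in FoxM1fl/fl SCs (adjusted p = 0.00607, and 0.0565). The most abundant, Col1a2, was at 2212, 2519.7 and 1841 FPKM in FoxM1-cKO SCs and 449, 454 and 437 FPKM in FoxM1fl/fl SCs without passing (adjusted p = 0.241, and 0.454), and Cd55 and Clec3b were at 0 in each library. Ly6a, which encodes the Sca1 antigen that the sort excluded, was at 0, 0 and 4.57 FPKM in FoxM1-cKO SCs and 11.4, 14.7 and 1.15 FPKM in FoxM1fl/fl SCs. Of 8 tenocyte markers Tnmd and Col12a1 were higher (25% called, against 7.81% of all genes, adjusted p = 0.0266 and 0.0218, and 0.111 and 0.0964). The list had sums of 1050.3, 1214 and 936 FPKM in FoxM1-cKO SCs and 369, 337 and 371 FPKM in FoxM1fl/fl SCs. Tnc and Col12a1 are matrix genes as well, and Tnc gave most of the sums in FoxM1-cKO SCs, at 584, 1018 and 734 FPKM. In FoxM1fl/fl SCs Tnc was at 287, 317 and 183 FPKM. Mural cell markers had no called gene among 6 and summed to 63.9, 129 and 223 FPKM in FoxM1-cKO SCs and 29.7, 28.6 and 39.8 FPKM in FoxM1fl/fl SCs, also without overlap. The part of these cells in the higher matrix genes was not tested.

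**Figure D5:**
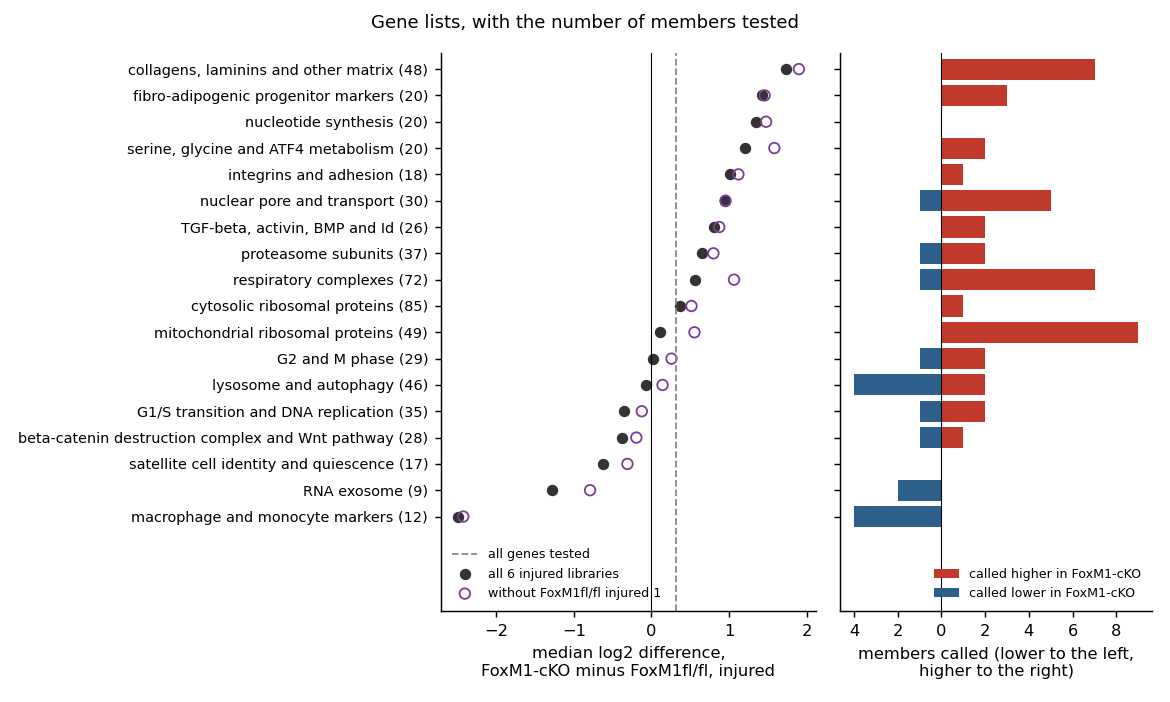
Median log2 difference of 18 gene lists, with the number of members tested in brackets, with all injured libraries (filled) and without FoxM1fl/fl injured 1 (open), beside the number of members called in each direction. The dashed line is the median of 0.32 over all genes with all injured libraries, which was 0.45 without FoxM1fl/fl injured 1. Matrix genes have the highest median at 1.73 and macrophage markers the lowest at -2.49, and leaving out the library moves no list across the line except the mitochondrial ribosomal proteins.

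Macrophage and monocyte markers had the lowest median of the lists with more than 1 gene tested. Of 12 tested, 4 fell (33.3%, against 2.66% of all genes), none rose and the median was -2.49. Without overlap 6 lay lower, against 5.87% of all genes. All 4 calls held without FoxM1fl/fl injured 1. Tyrobp, the adaptor of myeloid receptors, was at 0, 1.98 and 0 FPKM in FoxM1-cKO SCs and 158, 133 and 169.8 FPKM in FoxM1fl/fl SCs (log2 difference -6.74, SE 0.84, adjusted p = 0.00188, and 0.0101). Ctss, a lysosomal protease of antigen-presenting cells, was at 0, 0.436 and 0.716 FPKM in FoxM1-cKO SCs and 23.6, 35.1 and 26.02 FPKM in FoxM1fl/fl SCs (adjusted p = 0.0041, and 0.0133). Ms4a7 was at 0 in FoxM1-cKO SCs and 17.7, 19.4 and 5.50 FPKM in FoxM1fl/fl SCs (adjusted p = 0.00418, and 0.0143), and Cybb, the phagocyte oxidase, had an adjusted p of 0.00608, and 0.0311. Cd14, a coreceptor for lipopolysaccharide, was lower in each FoxM1-cKO library, at 348, 1.13 and 1.23 FPKM against 413, 366 and 549 FPKM in FoxM1fl/fl SCs, without passing the test (adjusted p = 0.072, and 0.189). Lyz2, lysozyme, overlapped between the groups and was at 621, 4.04 and 99.9 FPKM in FoxM1-cKO SCs and 454, 30.2 and 1330.4 FPKM in FoxM1fl/fl SCs (adjusted p = 0.527, and 0.779). Lgals3 overlapped as well (adjusted p = 0.933, and 0.935).

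Lysosome and autophagy genes gave 4 lower and 2 higher genes of 46 (13.04% called, against 7.81% of all genes). Of these calls 3 of the lower and none of the higher held without FoxM1fl/fl injured 1, and Ctss is also in the macrophage list. Grn, progranulin, was at 15.3, 3.79 and 43.1 FPKM in FoxM1-cKO SCs and 1586, 535 and 3943 FPKM in FoxM1fl/fl SCs (log2 difference -6.63, SE 1.14, adjusted p = 0.00485, and 0.0311). Glb1, lysosomal β-galactosidase, was at 0, 0.210 and 0 FPKM in FoxM1-cKO SCs and 11.1, 6.38 and 25.5 FPKM in FoxM1fl/fl SCs (adjusted p = 0.00473, and 0.0173). Ctsd, cathepsin D, was at 16.6, 3.05 and 19.4 FPKM in FoxM1-cKO SCs and 1098, 1459 and 42.0 FPKM in FoxM1fl/fl SCs (adjusted p = 0.0309, and 0.153). Myeloid cells, which the CD45 and CD11b gate should remove, are rich in these proteins, and their part in the lower values was not tested. Of 25 chemokines, cytokines and receptors 12% were called, against 7.81% of all genes. Among them Ccl8, a monocyte attractant, fell to 0 in each FoxM1-cKO library, against 62.6, 51.8 and 51.8 FPKM in FoxM1fl/fl SCs (adjusted p = 0.00188, and 0.0101). Il6 and Il4ra rose (adjusted p = 0.0309 and 0.013, and 0.105 and 0.0733), with Il6 at 100.5, 78.2 and 2.69 FPKM in FoxM1-cKO SCs and 0.999, 0 and 0.941 FPKM in FoxM1fl/fl SCs. Hbb-bs, an adult globin, was at 0 in FoxM1-cKO SCs and 13.7, 8.68 and 22.8 FPKM in FoxM1fl/fl SCs (adjusted p = 0.00306, and 0.0115).

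The largest decreases that held without FoxM1fl/fl injured 1 began with Exosc4, a core subunit of the RNA exosome (chr15:76327397-76330677), listed at 0 in FoxM1-cKO SCs and at 856, 135 and 2449 FPKM in FoxM1fl/fl SCs (adjusted p = 0.00168, and 0.0101). Exosc7, in the same ring, was at 0 in FoxM1-cKO SCs and 3.21, 5.41 and 1.13 FPKM in FoxM1fl/fl SCs (adjusted p = 0.0309, and 0.111). Of the 9 exosome genes 2 fell (22.2% called, against 7.81% of all genes) and none rose, and their median was -1.28. Smarcb1, a core subunit of the SWI/SNF remodeller, was at 2.68, 0.159 and 0.196 FPKM in FoxM1-cKO SCs and 296, 25.96 and 876 FPKM in FoxM1fl/fl SCs (log2 difference -6.80, SE 1.19, adjusted p = 0.00502, and 0.0325). Its partner Smarcc1 also fell (adjusted p = 0.018, and 0.0781), whereas Smarce1 rose to 7.87, 4.74 and 6.85 FPKM, against 0.250, 0.750 and 0 FPKM in FoxM1fl/fl SCs (adjusted p = 0.00825, and 0.0724). Of 33 chromatin genes 2 rose and 2 fell (12.1% called, against 7.81% of all genes).

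Ribosome biogenesis was mixed, with 4 higher and 3 lower genes of 54 (12.96% called, against 7.81% of all genes). Pwp1, a factor of pre-ribosomal RNA transcription, was at 0, 2.76 and 0.566 FPKM in FoxM1-cKO SCs and 148, 78.7 and 252 FPKM in FoxM1fl/fl SCs (log2 difference -6.32, SE 0.89, adjusted p = 0.00279, and 0.0133). Ddx52, an RNA helicase of the small subunit, was at 8.99, 38.1 and 6.53 FPKM in FoxM1-cKO SCs and at 0 in FoxM1fl/fl SCs (adjusted p = 0.00513, and 0.0457). Further large decreases were in Lrwd1, which binds the origin recognition complex, at 0 in FoxM1-cKO SCs and 311, 434 and 9.83 FPKM in FoxM1fl/fl SCs (adjusted p = 0.00558, and 0.0325), and in Traf7, a ubiquitin ligase, at 0.548, 0 and 0 FPKM in FoxM1-cKO SCs and 141, 185 and 30.01 FPKM in FoxM1fl/fl SCs (adjusted p = 0.00279, and 0.0115). Cuta was at 2.19, 0 and 8.35 FPKM in FoxM1-cKO SCs and 1587, 48.8 and 5271 FPKM in FoxM1fl/fl SCs (adjusted p = 0.00681, and 0.0485). Tsta3, of GDP-fucose synthesis, Hip1, an endocytic adaptor, Cybc1, a chaperone of the phagocyte oxidase, Dhrs13 and Myg1 completed the 15 (adjusted p = 0.00246 to 0.00631, and 0.0101 to 0.0444). Within FoxM1fl/fl SCs several of these genes varied widely, above all Cuta, Tsta3 and Lrwd1. Of 45 genes checked, those the study names and the 15 largest differences in each direction, 21 have an exon that overlaps another gene, among them Exosc4 with Oplah, Tacc3 with Tmem129, Grn with Fam171a2, Lrwd1 with Polr2j and Cuta with Phf1, all on the opposite strand. Whether counting used strand is not given in the sources used here, so reads of such pairs cannot be told apart.

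Shisa5, a p53 target of the endoplasmic reticulum, was the 1 called gene of 20 in the p53 pathway (5%, against 7.81% of all genes). It was at 0.349, 0 and 0 FPKM in FoxM1-cKO SCs and 6.99, 6.20 and 7.67 FPKM in FoxM1fl/fl SCs (log2 difference -2.84, SE 0.46, adjusted p = 0.00427, and 0.0148). Immediate early genes split, with Klf4 higher (adjusted p = 0.0208, and 0.0823) and Atf3 lower of 29 (6.90% called, against 7.81% of all genes). Atf3, a stress-induced factor, was at 0.353, 0 and 0 FPKM in FoxM1-cKO SCs and 519, 592 and 283 FPKM in FoxM1fl/fl SCs (log2 difference -8.65, SE 1.88, adjusted p = 0.0134, and 0.0679). Of 17 satellite cell identity genes none was called at an adjusted p under 0.05 and 2 lay higher without overlap (17.2% of all genes did), with a median of -0.62. Of 23 myogenic genes 2 rose and 1 fell (13.04% called, against 7.81% of all genes), and none of these calls held without FoxM1fl/fl injured 1. Myh3, embryonic myosin, was at 37.4, 2.35 and 229.7 FPKM in FoxM1-cKO SCs and 0.129, 0 and 0 FPKM in FoxM1fl/fl SCs (adjusted p = 0.022, and 0.0931), and Eya1, a cofactor of homeobox factors, was at 0.321, 0 and 0.444 FPKM in FoxM1-cKO SCs and 6.43, 5.17 and 7.07 FPKM in FoxM1fl/fl SCs (adjusted p = 0.0307, and 0.0975). Tpm1, a tropomyosin also made by non-muscle cells, was the called gene among 34 of the sarcomere (2.94%, against 7.81% of all genes). It was at 1427, 806 and 1877 FPKM in FoxM1-cKO SCs and 69.4, 60.9 and 58.3 FPKM in FoxM1fl/fl SCs (log2 difference 4.34, SE 0.79, adjusted p = 0.00608, and 0.0325).

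Lists without a called gene included chaperones (43 tested, with a median of 0.46), glycolysis (16 tested, with a median of 0.33) and the tricarboxylic acid cycle (17 tested, with a median of 0.63). Aminoacyl-tRNA synthetases, tubulins with their motors, and S100 proteins with galectins and annexins likewise had none among 19, 20 and 15 genes. Vesicle coats had Tmed10, Clta and Rab18 higher out of 65, and the spliceosome had Prpf19 and Hnrnpr higher out of 72, with none lower in either. These shares called (4.62% and 2.78%) were below the 5.15% of all genes called higher, and none of the 5 calls held without FoxM1fl/fl injured 1 (0.051 to 0.134).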

How the data were processed

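RNA of about 800 sorted SCs per library was measured in 12 libraries, 3 in each of 4 groups. The authors deposited FPKM for 13775 genes, and per the submitters' processing notes Bowtie 0.12.9, Cufflinks 2.1.1, HTSeq and mm10 were used. Because deposited values were FPKM and not counts, no count model was run. A gene entered the test if 3 or more of the 12 libraries had 1 FPKM or more (4956 genes), and values were tested on log2(FPKM + 1) with limma 3.58.1 in R 4.3.3, with 4 group means, variances moderated with a trend, and Benjamini-Hochberg adjustment over all 4956 genes. Tables and plots were made with Python 3.11.15, pandas 2.3.3, numpy 2.4.6 and matplotlib 3.10.9. Depth was estimated from the step size of low FPKM values, and precision is limited by 3 libraries per group, for which an exact permutation test cannot go below p = 0.1. Coordinates are from GENCODE M21, which matched 13767 genes, and promoters from RefSeq (GRCm38.p6).

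Genes were named if the study names them for injured SCs, if they were among the 15 highest or 15 lowest differences that were called with and without FoxM1fl/fl injured 1, did not overlap between groups and averaged at least 5 FPKM in the higher group, if they were called members of 1 of 55 gene lists, or if they were abundant markers of a cell type. Itga7, Cd34, Cdh15 and Vcam1 were named after their values were seen. The comparison, the lists and the rule were chosen with earlier results of these data known. On simulated data for FoxM1-cKO against FoxM1fl/fl in injured mice (4956 genes), the fit recovered 3.75% of genes changed by 2, 27.5% by 4 and 72.5% by 6 on the log2 scale, with 3 false calls. The simulated libraries were drawn independently with a normal spread, unlike the real ones that follow a sum of others. The simulation therefore does not give the number of false calls among the genes called here. Alternatives changed the pseudocount (0.1 or 5), filter, scaling, libraries, weights, trend and replicate block, and 3 more were chosen after seeing the data. Pax7 and Myf5 were not analysed here.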

Additional observations from a re-analysis of the deposited data

How the results depend on the processing

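The number of called genes (387, with 255 higher and 132 lower) moved by more than 1.5 times with several choices. It was 93 with no filter, with more genes in the adjustment, 221 with at least 5 FPKM in at least 3 libraries, 137 after quantile normalization (66 higher and 71 lower), 1220 with array weights (523 higher and 697 lower) and 2 in the 6 injured libraries alone. Leaving out each library in turn gave 103 to 725 calls, with 103 without FoxM1fl/fl injured 1, 725 without FoxM1fl/fl injured 3 and 255 without FoxM1fl/fl uninjured 1. Of 3 settings chosen after seeing the data, limma without the 3 libraries that follow a sum of others called 0 (461 at an unadjusted p under 0.05), the injured libraries alone without FoxM1fl/fl injured 1 called 0 (282 at an unadjusted p under 0.05), and the 6 injured libraries alone with the filter set over them called 6. The count of genes without overlap was 1144, and 1183 to 2006 with 1 injured library left out, where fewer samples make separation easier in each case. The lowest of these counts, 1183, was without FoxM1fl/fl injured 1, which followed a sum of the other FoxM1fl/fl injured libraries. The highest, 2006, was without FoxM1fl/fl injured 3. Of 127 called genes named by rule, 78 lost the call without FoxM1fl/fl injured 1, 76 with no filter, 65 after quantile normalization and 126 in the 6 injured libraries alone. Skp1a, at -0.33, reversed to 0.41 without FoxM1-cKO injured 2, to 0.55 without FoxM1fl/fl injured 2 and to 0.24 in the 3 settings without FoxM1fl/fl injured 1, was -1.77 without FoxM1fl/fl injured 3, and passed no test. With the replicate number as a block limma called 313 genes (206 higher and 107 lower). Same-numbered libraries did not deviate together (r = 0.031, -0.0091 and -0.0043), and not every library correlated best with its own number. The labels do not say whether the numbers pair the samples, and correlations over so few libraries cannot exclude it. Depth of 907532 to 2854399 reads limits what a value of 0 means.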

Other observations

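A few called genes were picked after their values were seen, so they stand for themselves and for no gene group. Those described first were higher in FoxM1-cKO SCs. Fkbp10, a collagen chaperone, was at 8.68, 10.5 and 2.82 FPKM in FoxM1-cKO SCs and at 0 in FoxM1fl/fl SCs (limma, adjusted p = 0.00498, and 0.0482 without FoxM1fl/fl injured 1). Plod2, a lysyl hydroxylase of collagen, was at 7.27, 27.7 and 2.25 FPKM in FoxM1-cKO SCs and at 0 in FoxM1fl/fl SCs (adjusted p = 0.0122, and 0.0775). Ero1l, an oxidase of disulfide formation, was at 11.6, 9.89 and 44.7 FPKM in FoxM1-cKO SCs and 0, 0.176 and 0 FPKM in FoxM1fl/fl SCs (adjusted p = 0.00473, and 0.0389).

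Others, picked in the same way, were lower. Plek, pleckstrin of leukocytes and platelets, was at 0.0854, 0 and 0 FPKM in FoxM1-cKO SCs and 9.32, 7.98 and 8.87 FPKM in FoxM1fl/fl SCs (log2 difference -3.24, SE 0.48, adjusted p = 0.00293, and 0.0115). Cd300a, an inhibitory receptor of leukocytes, was at 0 in FoxM1-cKO SCs and 7.22, 8.89 and 9.49 FPKM in FoxM1fl/fl SCs (adjusted p = 0.00291, and 0.0101). Il1rn, the interleukin 1 receptor antagonist, was at 0 in FoxM1-cKO SCs and 22.9, 3.66 and 88.4 FPKM in FoxM1fl/fl SCs (adjusted p = 0.0101, and 0.0472).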
